A study of Mus musculus with 30 samples.

Results

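The hydralazine arm comprised 12 of the 30 bulk RNA-seq libraries of the series, each from the descending thoracic aorta of a male mouse, with 6 VEDS and 6 control libraries. VEDS mice, labelled Het, carry a heterozygous glycine missense mutation of *Col3a1* in all tissues and model vascular Ehlers-Danlos syndrome, and control mice, labelled WT, are *Col3a1*+/+. Mice of both genotypes drank 32 mg/kg/day hydralazine, a vasodilator that lowers blood pressure, from birth until collection on day 30 or day 60, and the comparison asks how the mutation alters aortic transcripts while this treatment is present. No label gives the collection day of a library, so the 12 libraries were split by a measured level in place of age: *Col3a1* above or below 10000 CPM, the expected count scaled by the file total. This rule gave a matrix-high and a matrix-low stratum of 6 libraries each, with 3 VEDS and 3 control libraries in each.

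Collagen III, the product of *Col3a1*, is a fibrillar collagen of distensible tissues, made in the aorta by smooth muscle cells and fibroblasts and laid down together with collagens I and V. Collagen transcripts fall steeply as the postnatal aorta matures while contractile transcripts rise. Because collagen is rich in glycine and proline, its synthesis draws on the cell's amino acid supply, and serine and one-carbon enzymes make glycine.

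*Col3a1* separated the strata by a wide gap, which the rule itself sets and which is given as a description. The matrix-high libraries held 14836 to 15432 CPM in VEDS and 15849 to 16735 CPM in controls, and the matrix-low libraries 5507 to 7508 CPM in VEDS and 4430 to 7652 CPM in controls. The library nearest the cut from below stood at 7652 CPM and the nearest from above at 14836 CPM. Within the matrix-high stratum the 3 VEDS libraries all lay below the 3 control libraries, whereas the ranges overlapped in the matrix-low stratum. A split at the median of summed *Col1a1* and *Col1a2* placed 12 of 12 libraries in the same strata. The series also holds VEDS mice given hydralazine with bicalutamide, an androgen antagonist (HB), or spironolactone, a dual androgen and mineralocorticoid receptor antagonist (HS). Unlike hydralazine, these antagonists were not given from birth. The 6 VEDS libraries of these combined treatments lay between 5173 and 7413 CPM. Day 60 is the only collection day listed as possible for them, and no label of a single library states it. The untreated libraries also fell 3 and 3 per genotype, but the strata remain groupings by a transcript level and not ages. The deposited TPM, which divide by transcript length, ranked the fibrillar collagens in VEDS as *Col3a1* (1302), *Col1a2* (617), *Col1a1* (242) and *Col5a2* (137), with 1375, 698, 340 and 147 TPM in controls.

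Libraries held 5644869 to 8293289 expected counts. Smooth muscle markers were abundant in all 12, summing to 18725 to 30432 CPM over 7 genes, and markers of tissues outside the aortic wall varied between libraries. The 7 measured of 10 cardiomyocyte markers were led by control replicate 5, a matrix-high library, in which the whole list summed to 1050 CPM against 152 to 268 CPM in the other 11. The 10 hepatocyte markers, led by albumin, summed to 8936, 15417 and 10868 CPM in the matrix-high VEDS libraries and to 4647, 14056 and 1316 CPM in the matrix-high controls. In the matrix-low stratum these sums were 2584, 3537 and 3058 CPM in VEDS and 2420, 819 and 2321 CPM in controls. Results below are therefore given where needed without control replicate 5 and VEDS replicate 4, the libraries highest in these markers, or without control replicate 3, the hepatocyte-rich control. In bulk RNA, fewer cells of a type and less RNA per cell cannot be told apart.

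With the stratum as a covariate, no gene of 12966 tested passed an adjusted p of 0.05 between VEDS and control aortas by edgeR (0 called, 0%), whereas 18 passed by DESeq2. At an unadjusted p under 0.05 there were 1197 genes (9.23%), 608 higher in VEDS (4.69%) and 589 lower (4.54%), against 602 (4.64%) without the covariate. The log2 differences were nearly the same in both fits, with a median absolute change of 0.0025, while the median standard error fell from 0.115 to 0.0990 and was smaller with the covariate for 82.8% of genes. Of all genes, 121 (0.933%) had VEDS and control libraries that did not overlap in either stratum and differed the same way in both, 56 higher (0.432%) and 65 lower (0.501%) in VEDS.

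The 10 genes with the smallest p in the adjusted comparison were 5 higher and 5 lower in VEDS, and values are hereafter CPM after TMM scaling with log2 differences of VEDS minus control ± SE. Each of the 10 separated the genotypes without overlap in both strata, as the plot of single libraries shows. A choice by p in this fit favours genes that differ alike in both strata. Of the 1197 genes with an unadjusted p under 0.05, 1187 had the same sign in both strata, against 56.0% of all genes. *C7*, a component of the terminal complement pathway, stood at 15.9, 25.8 and 26.8 CPM in matrix-high VEDS libraries and 51.4, 54.4 and 45.7 CPM in matrix-high controls. In the matrix-low stratum *C7* stood at 51.2, 55.4 and 57.3 CPM in VEDS and 72.8, 95.7 and 96.2 CPM in controls. The genotypes stayed apart within each stratum although matrix-low VEDS libraries reached the level of matrix-high controls, and the adjusted difference was -0.90 ± 0.13 (edgeR, adjusted p = 0.0691). DESeq2 called *C7* at an adjusted p of 1.3e-08, and across all alternatives its adjusted p by edgeR and DESeq2 ranged from 1.3e-08 to 0.923.

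*Aldh1l2*, the mitochondrial 10-formyltetrahydrofolate dehydrogenase of one-carbon metabolism, stood at 104, 91.6 and 87.5 CPM in matrix-high VEDS and 67.0, 57.5 and 71.8 CPM in matrix-high controls. Matrix-low values were 53.9, 45.0 and 44.3 CPM in VEDS and 29.2, 36.6 and 30.5 CPM in controls, a difference of 0.55 ± 0.079 overall (adjusted p = 0.0691). *Lum*, which encodes the collagen-binding proteoglycan lumican, stood at 200, 186 and 201 CPM against 143, 151 and 132 CPM in the matrix-high stratum and at 149, 143 and 152 against 91.6, 127 and 113 CPM in the matrix-low stratum (0.44 ± 0.069, adjusted p = 0.0952). These differences were of similar size in both strata. *Aldh1l2* measured 0.53 ± 0.11 in matrix-high and 0.57 ± 0.12 in matrix-low libraries, and *Lum* 0.46 ± 0.10 and 0.42 ± 0.10.

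**Figure D1:**
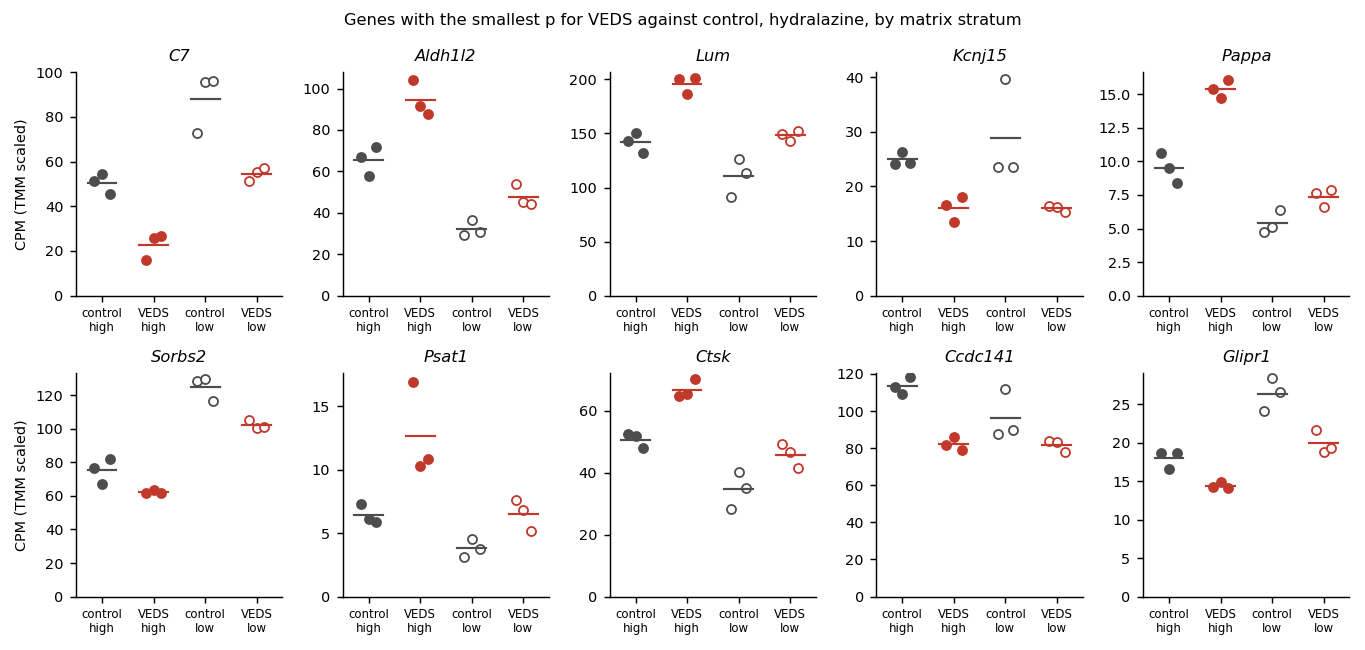
CPM after TMM scaling (linear axes from 0) of the 10 genes with the smallest p for VEDS against control under hydralazine, with 1 point per library, filled for matrix-high and open for matrix-low, and a line at the mean of 3 libraries. In each panel the VEDS points lie wholly above or wholly below the control points of the same stratum, and for *Kcnj15* the highest control is replicate 4 at 39.7 CPM.

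Among the other 7, *Kcnj15*, an inward rectifier potassium channel, stood at 16.6, 13.6 and 18.0 CPM in matrix-high VEDS against 24.2, 26.4 and 24.4 CPM, and at 16.5, 16.2 and 15.3 CPM in matrix-low VEDS against 23.6, 39.7 and 23.5 CPM (-0.75 ± 0.13). Unlike *C7* and *Aldh1l2*, its VEDS levels were alike in both strata. *Pappa*, a protease that cleaves insulin-like growth factor binding proteins, differed by 0.59 ± 0.11, the serine synthesis enzyme *Psat1* by 0.88 ± 0.16 and the collagen-degrading cathepsin *Ctsk* by 0.40 ± 0.076. Lower in VEDS were the actin-associated adaptor *Sorbs2* (-0.28 ± 0.051), *Ccdc141* (-0.36 ± 0.069) and *Glipr1* (-0.36 ± 0.071). In the 12 untreated libraries, fitted with the same covariate, 9 of these 10 genes had the same sign and 1, *Ctsk* (0.34), had an unadjusted p under 0.05, against 5.21% of all genes there (4.08% higher and 1.13% lower), and 51.7% of all genes were above 0. *Kcnj15* differed by 0.01 in untreated libraries, and the difference between the hydralazine and untreated effects, tested in 1 fit of the 24 libraries, was -0.76 for *Kcnj15* and 0.39 for *Aldh1l2*, with 0 of 13407 genes called and 643 at an unadjusted p under 0.05. The untreated libraries include control replicate 5 and VEDS replicate 5, whose low-count genes are described below, and no fit without them was run.

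Matrix genes did not share a direction. Of 7 measured fibrillar collagen genes other than *Col3a1*, 0 were higher in VEDS in the adjusted comparison (median -0.09, against -0.0047 for all genes tested, of which 48.3% were above 0), and 0 had an unadjusted p under 0.05. *Col1a1* differed by -0.19 ± 0.20, *Col1a2* by -0.10 ± 0.12, *Col5a1* by -0.08 ± 0.076 and *Col5a2* by -0.09 ± 0.076. In matrix-high libraries 0 of these 7 were higher, with a median of -0.23, and in matrix-low libraries 6 of 7, with a median of 0.07, beside 47.8% and 49.4% of all genes above 0, and the contrast between strata was not tested for the list. *Col1a1*, the main chain of collagen I, stood at 2548, 3542 and 2868 CPM in matrix-high VEDS and 5464, 4228 and 4978 CPM in matrix-high controls, without overlap (-0.71 ± 0.19, adjusted p = 0.255). In matrix-low libraries it stood at 1427, 1215 and 924 CPM in VEDS and 723, 1153 and 971 CPM in controls, which overlapped (0.33 ± 0.19). The difference between strata was -1.04 ± 0.27 and did not pass over all genes (adjusted p = 0.982). Since *Col3a1* set the strata and its matrix-high VEDS and control ranges did not overlap, collagens that follow it share what the rule used.

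The study named a list of matrix genes as higher in untreated VEDS than in untreated control aortas of this series at day 60. None of the hydralazine libraries was used for that choice, though they belong to the same series. With the covariate 6 of 6 were higher (median 0.35), with 4 at an unadjusted p under 0.05 against 4.69% of all genes. Besides *Lum* and *Ctsk* the 4 were *Igfbp6*, which sequesters insulin-like growth factor II, and *Fbln2*, an elastic fibre protein. *Igfbp6* stood at 52.6, 72.5 and 57.5 CPM against 40.6, 39.7 and 25.8 CPM in matrix-high libraries and at 78.0, 81.3 and 84.8 against 43.4, 72.9 and 62.3 CPM in matrix-low libraries (0.61 ± 0.14). *Fbln2* differed by 0.31 ± 0.10 and *Mmp2*, a gelatinase, by 0.23 ± 0.12. Of the 13 measured proteoglycans other than *Lum*, 2 were higher in VEDS (median -0.15), and *Ogn* (osteoglycin, -0.18 ± 0.044), the perlecan gene *Hspg2* (-0.19 ± 0.077) and *Prelp* (-0.22 ± 0.097) were the 3 with an unadjusted p under 0.05 in the lower direction, against 4.54% of all genes. *Ogn* did not overlap in either stratum. Of 20 basement membrane genes 6 were higher and 4 of the lower ones had an unadjusted p under 0.05, including the laminins *Lama5* (-0.18 ± 0.066) and *Lama4* (-0.13 ± 0.050).

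Collagen folding genes showed no common direction, with 13 of 27 higher (median -0.01), although *P4hb*, the protein disulfide isomerase subunit of prolyl hydroxylase, was higher without overlap in both strata (0.15 ± 0.046) and the lysyl hydroxylase *Plod2* was lower (-0.13 ± 0.054). Of 24 endoplasmic reticulum stress genes 19 were higher (median 0.05, beside 48.3% of all genes above 0), with 4 at an unadjusted p under 0.05, beside 4.69% of all genes. These were *Trib3* and *Asns*, which are also in the amino acid list described below, *Herpud1* (0.22 ± 0.094) and the chaperone *Dnajb9* (0.19 ± 0.086). Among 23 matrix proteases and inhibitors 11 were higher, and besides *Ctsk* the inhibitor *Timp1* (0.38 ± 0.11) and the metalloproteinase *Mmp19* (0.33 ± 0.13) had an unadjusted p under 0.05.

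Enzymes and transporters of serine, one-carbon and amino acid metabolism were higher in VEDS in most members. This list of 42 genes was assembled after the values were seen, so its counts describe and support nothing: 37 were measured above the filter, 33 were higher (median 0.16) and 14 had an unadjusted p under 0.05, all in the higher direction. Of all genes tested, 48.3% were above 0 and 4.69% were higher at that level. *Psat1*, which makes phosphoserine, stood at 16.9, 10.3 and 10.8 CPM against 7.27, 6.14 and 5.90 CPM in matrix-high libraries and at 7.63, 6.78 and 5.15 against 3.11, 4.54 and 3.72 CPM in matrix-low libraries. *Bcat1*, the cytosolic branched-chain aminotransferase, stood at 13.8, 15.7 and 12.9 CPM against 8.06, 10.2 and 9.01 CPM and at 8.88, 5.73 and 6.57 against 1.64, 3.83 and 2.82 CPM (0.91 ± 0.19, adjusted p = 0.364). Both genes were separated in each stratum.

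*Phgdh*, the first enzyme of serine synthesis, stood at 23.4, 20.2 and 18.6 CPM in matrix-low VEDS and 13.6, 13.5 and 13.5 CPM in matrix-low controls (0.61 ± 0.11), and at 28.2, 25.6 and 30.3 against 23.9, 23.8 and 26.3 CPM in matrix-high libraries, which overlapped (0.18 ± 0.10). The difference between strata did not pass for *Phgdh* (edgeR, adjusted p = 0.982). *Trib3*, a pseudokinase induced by amino acid shortage, and asparagine synthetase, *Asns*, had matrix-high values without overlap, *Trib3* at 7.35, 8.35 and 5.82 against 1.74, 3.37 and 1.24 CPM (1.70 ± 0.30) and *Asns* at 15.7, 17.1 and 15.3 against 6.17, 9.63 and 7.77 CPM (1.02 ± 0.23). Over both strata *Phgdh* differed by 0.38 ± 0.093, *Trib3* by 1.23 ± 0.26 and *Asns* by 0.79 ± 0.18. The serine hydroxymethyltransferase *Shmt2* (0.39 ± 0.13), the mitochondrial carboxykinase *Pck2* (0.25 ± 0.067), the transport subunits *Slc7a5* (0.44 ± 0.17) and *Slc3a2* (0.25 ± 0.098) and the cystathionine lyase *Cth* (1.23 ± 0.39) were also higher in sign, whereas the transcript of *Atf4*, the factor that drives many of these genes, differed by 0.06 ± 0.091. *Cth* and other members are abundant in liver, and the hepatocyte sums given above were higher in VEDS for 10 of 10 markers (median 0.77). Without control replicate 5 and VEDS replicate 4, 26 of 37 members were higher and 10 had an unadjusted p under 0.05, beside a hepatocyte median of 0.46. The part of liver transcripts in these values was not tested.

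ATF4 binds a composite element that the letters TGATGNAA describe, and the 250 bases before the RefSeq start (build GRCm38.p6) were searched for them on both strands. Of 35 members with a window, 11 held the letters, against 3.91% of all 27025 gene symbols with a window, and the list contains genes known for this element. Among members that passed the expression filter, 8 of 31 held them, beside 2.48% of all tested symbols with a window. *Slc7a11*, whose window is shown, did not pass that filter. The windows of 4 members are shown with the match in capitals, each read 5′ to 3′ on the strand of its gene.
*Asns*, chr6:7693215-7693242, minus strand: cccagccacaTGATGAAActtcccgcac
*Pck2*, chr14:55540153-55540180, plus strand: gccttcaaagTTACATCAgtatcttaca
*Gars*, chr6:55037961-55037988, plus strand: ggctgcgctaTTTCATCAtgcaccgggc
*Slc7a11*, chr3:50443662-50443689, minus strand: ctcatgtggcTGATGCAAacctggagaa
The first base of the match lay 23 bases before the start in *Asns* and 103 in *Pck2*. The letters were not in the windows searched for *Psat1*, *Bcat1*, *Phgdh* and *Trib3*.

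Cholesterol genes were higher in VEDS in 21 of 22 members (median 0.37), and with the covariate 12 had an unadjusted p under 0.05, against 4.69% of all genes and 5 members without the covariate. *Sqle*, squalene epoxidase, stood at 40.5, 36.2 and 41.1 CPM against 23.7, 22.5 and 31.1 CPM in matrix-high libraries and at 31.5, 19.8 and 22.5 against 22.3, 16.2 and 22.3 CPM in matrix-low libraries. The genotypes were separated only in the matrix-high stratum, and the adjusted difference was 0.46 ± 0.13. The sterol carrier *Stard4* differed by 0.53 ± 0.15 and the desaturase *Sc5d* by 0.65 ± 0.18. The list median was 0.50 in matrix-high and 0.23 in matrix-low libraries, with 13 and 0 members at an unadjusted p under 0.05, beside 4.93% and 1.72% of all genes in that direction. Hepatocyte markers were also higher, in 10 of 10 (median 0.77). Without control replicate 5 and VEDS replicate 4 the cholesterol counts were 21 of 22 and 11, with a hepatocyte median of 0.46. Without control replicate 3, which was highest among controls in *Sc5d* at 64.9 CPM, 20 of 21 cholesterol genes were higher and 15 had an unadjusted p under 0.05, with a hepatocyte median of 1.31. The part of liver transcripts in the cholesterol values was not tested. The letters TCACNCCAC of the sterol regulatory element, searched as above, were found in 1 of 14 members with a window, *Hmgcs1*, and in 1.22% of all gene symbols.
*Hmgcs1*, chr13:119690204-119690232, plus strand: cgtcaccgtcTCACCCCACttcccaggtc

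**Figure D2:**
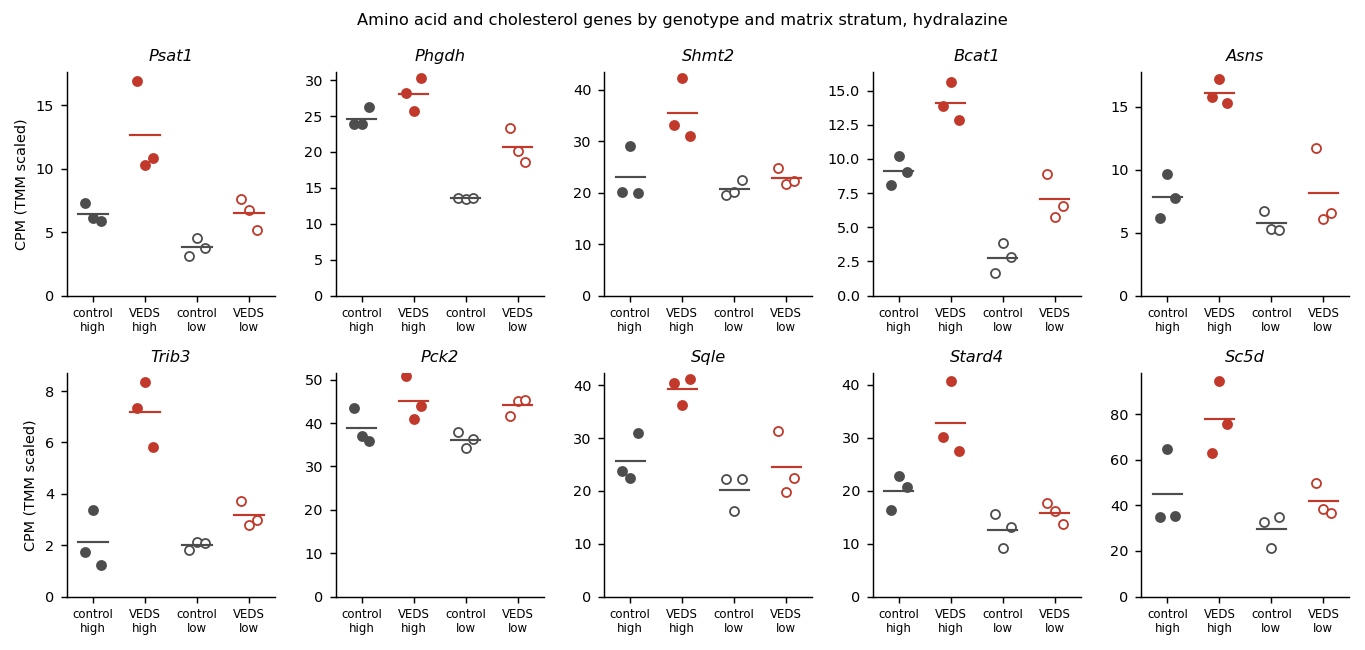
CPM after TMM scaling (linear axes from 0) of 7 amino acid genes and 3 cholesterol genes, with 1 point per library and a line at the mean of 3 libraries, filled for matrix-high and open for matrix-low. *Psat1* and *Bcat1* are separated by genotype in both strata, *Sqle* only in the matrix-high stratum and *Phgdh* only in the matrix-low stratum.

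Contractile genes lay on the lower side. Of 20 smooth muscle contractile genes 0 were higher in VEDS (median -0.14) and 10 had an unadjusted p under 0.05, against 4.54% of all genes and 2 members without the covariate. *Cnn1*, calponin, stood at 834, 811 and 924 CPM in matrix-high VEDS and 1191, 1044 and 1101 CPM in matrix-high controls, and at 1239.8, 1218 and 1383 against 1269.5, 1352 and 1427 CPM in matrix-low libraries. *Tagln*, transgelin, differed by -0.19 ± 0.060, the smooth muscle coactivator *Myocd* by -0.38 ± 0.12 and *Kcnmb1*, the beta subunit of the large-conductance potassium channel, by -0.18 ± 0.059. By stratum, 12 of 20 members were at an unadjusted p under 0.05 in matrix-high libraries (median -0.20, beside 5.98% of all genes) and 0 in matrix-low libraries (median -0.07, beside 1.32% of all genes), and the difference between strata was not tested for the list. Without control replicate 5 and VEDS replicate 4, 1 of 20 was higher and 4 had an unadjusted p under 0.05. The study named 16 contractile, integrin and differentiation genes in a group that rose from day 30 to day 60 in both genotypes. It described that group as slightly lower in VEDS, so the genes were chosen for a change with age. Of the 16, 0 were higher and 8 were lower at an unadjusted p under 0.05, beside 4.54% of all genes. Several of them are also counted in the contractile, integrin and TGF-beta lists, so this is not a separate result. The kinases *Rock2* (-0.20 ± 0.063) and *Rock1* (-0.23 ± 0.088) were among the 8, and that list was chosen on untreated libraries of this series.

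Among 23 integrins and collagen receptors 2 were higher (median -0.11, beside 48.3% of all genes above 0) and 6 had an unadjusted p under 0.05 in the lower direction, beside 4.54% of all genes, including *Itgb4* (-0.39 ± 0.12), *Itga8*, an alpha integrin of smooth muscle (-0.14 ± 0.050), *Itgb1*, the beta chain shared by collagen-binding integrins (-0.13 ± 0.049), and *Vcl*, vinculin (-0.17 ± 0.064). Without control replicate 5 and VEDS replicate 4 these counts were 6 and 2. Of 24 TGF-beta genes 8 were higher and 5 had an unadjusted p under 0.05 in the lower direction, beside the same 4.54%, among them the ligand *Tgfb2* (-0.36 ± 0.11), the latent binding protein *Ltbp1* (-0.16 ± 0.051) and the activator *Thbs1* (-0.47 ± 0.18). In the list of PLC, PKC and ERK genes, 13 of 25 were higher, while the phospholipases *Plce1* (-0.25 ± 0.068) and *Plcb4* (-0.18 ± 0.060) and the inositol trisphosphate receptor *Itpr1* (-0.16 ± 0.046) were the 3 with an unadjusted p under 0.05 in the lower direction. Of 24 vascular potassium and calcium channel genes 5 had an unadjusted p under 0.05, all lower (4.54% of all genes), and *Kcnma1*, the pore of the channel that *Kcnmb1* modulates, differed by -0.20 ± 0.064.

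**Figure D3:**
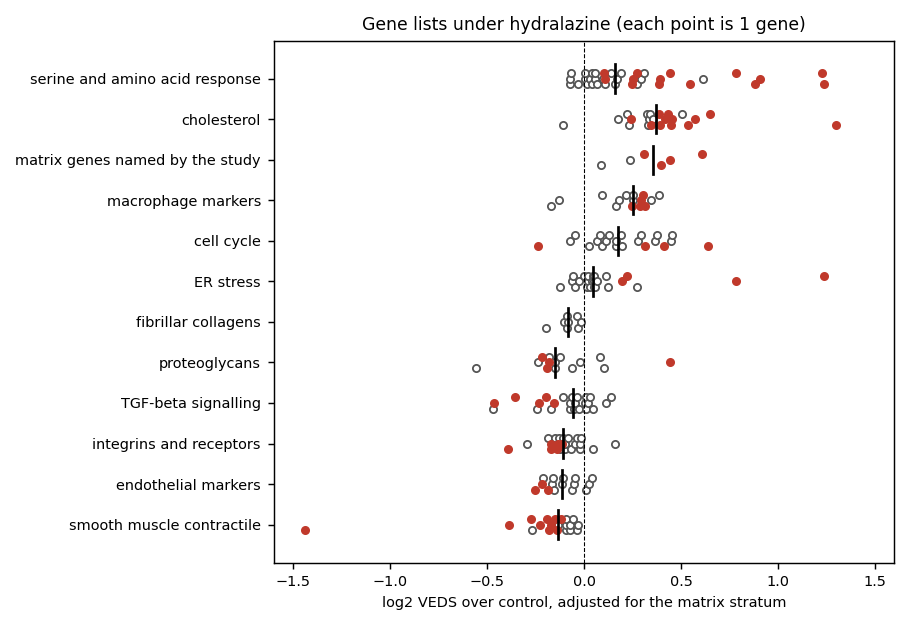
Log2 difference of VEDS minus control under hydralazine, adjusted for the matrix stratum, for the measured members of 12 lists, with 1 point per gene, filled red at an unadjusted p under 0.05, and a bar at each list's median. Cholesterol (21 of 22) and amino acid genes (33 of 37) lie mostly right of 0, and all 20 contractile genes left of it. The amino acid list was assembled after the values were seen, so its place follows in part from the choice.

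Of 22 genes of vasoactive peptide, nitric oxide and angiotensin signalling, 5 were higher and 3 lower at an unadjusted p under 0.05, beside 4.69% and 4.54% of all genes. *Agtr1a*, the angiotensin II receptor, stood at 8.55, 9.54 and 8.52 CPM against 4.43, 8.06 and 4.50 CPM in matrix-high libraries and at 4.05, 6.78 and 5.54 against 3.61, 2.84 and 3.86 CPM in matrix-low libraries (0.64 ± 0.18). The endothelin receptor *Ednra* differed by 0.35 ± 0.12 and the natriuretic peptide receptor *Npr1* by -0.20 ± 0.071. *Nr3c2*, the mineralocorticoid receptor, overlapped between genotypes, ranging from 25.8 to 47.1 CPM in VEDS and from 22.8 to 57.2 CPM in controls (-0.0022 ± 0.074). The list of steroid receptors and hormone-responsive genes held 17 measured members, with 0 at an unadjusted p under 0.05.

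Wnt modulators and insulin-like growth factor binding proteins included 5 of 20 members higher and 2 lower at an unadjusted p under 0.05, beside 4.69% and 4.54% of all genes. *Sfrp4*, a secreted Wnt antagonist, stood at 65.6, 69.8 and 72.1 against 56.3, 56.3 and 52.8 CPM in matrix-high libraries and at 115, 95.7 and 80.4 against 48.4, 74.1 and 58.3 CPM in matrix-low libraries (0.51 ± 0.11). *Igfbp4* (0.34 ± 0.11) and *Igf1* (0.24 ± 0.078) were higher in sign too. Of 22 cell cycle genes 19 were higher (median 0.18, beside 48.3% of all genes above 0), with the mitotic genes *Bub1b* (0.41 ± 0.15) and *Ccnb1* (0.64 ± 0.25), the thymidylate synthase *Tyms* (0.32 ± 0.13) and, in the opposite direction, the helicase subunit *Mcm6* (-0.24 ± 0.061) at an unadjusted p under 0.05. The immediate early gene *Myc* differed by 0.74 ± 0.22. Among 17 clock genes *Bhlhe40* (0.60 ± 0.21) and *Tef* (0.36 ± 0.15) were higher and *Rora* (-0.23 ± 0.085) and *Clock* (-0.14 ± 0.056) lower at that level.

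Macrophage markers were higher in 13 of 15 (median 0.25), 5 of them at an unadjusted p under 0.05, where 48.3% of all genes were above 0 and 4.69% were higher at that level, among them the scavenging receptor *Mrc1* (0.31 ± 0.12), *F13a1* (0.29 ± 0.11), the complement gene *C1qa* (0.31 ± 0.13) and *Csf1r* (0.29 ± 0.13), and without control replicate 5 and VEDS replicate 4 that count was 0. Endothelial markers were higher in 3 of 15 (median -0.11), with *Cdh5* (-0.25 ± 0.11), *Nos3* (-0.22 ± 0.10) and *Esam* (-0.18 ± 0.079) at an unadjusted p under 0.05, beside 4.54% of all genes. Adventitial fibroblast markers had no common direction, 7 of 15 being higher. At an unadjusted p under 0.05, *Lum*, *Thy1* (0.59 ± 0.13) and *Serpinf1* (0.35 ± 0.10) were higher and *Dpep1* was lower, beside 4.69% and 4.54% of all genes. Adipocyte markers were higher in 0 of 12 (median -0.23, 0 at an unadjusted p under 0.05), and cardiomyocyte markers in 0 of 7 (median -2.27, and -0.13 without control replicate 5 and VEDS replicate 4). The fatty acid synthesis, fatty acid oxidation and respiratory chain lists had medians of 0.06, -0.01 and -0.03, with 1, 0 and 0 members at an unadjusted p under 0.05 in either direction.

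Within the matrix-high stratum 4 genes were called (0.0308% of genes tested), 2 in each direction (0.0154% each), all with an edgeR adjusted p of 0.0458, and 1414 genes reached an unadjusted p under 0.05 (10.9%). *Kctd16*, an auxiliary subunit of GABA-B receptors, fell from 348, 260 and 273 CPM in controls to 147, 159 and 174 CPM in VEDS (-0.88 ± 0.11). *Adam11*, a catalytically inactive member of the ADAM family, fell from 30.0, 24.0 and 23.0 CPM to 12.8, 11.0 and 14.6 CPM (-0.9999 ± 0.14). *Cyb5r1*, a cytochrome b5 reductase, rose from 14.1, 13.5 and 12.3 CPM to 25.5, 24.8 and 22.6 CPM (0.86 ± 0.12).

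*Aldh3a2*, the fatty aldehyde dehydrogenase, rose from 45.9, 53.4 and 47.4 CPM to 76.6, 73.7 and 73.2 CPM (0.60 ± 0.082). In matrix-low libraries the genotypes overlapped for all 4 genes, with *Aldh3a2* at 53.7, 52.3 and 56.9 CPM in VEDS and 54.1, 48.6 and 59.2 CPM in controls. The calls were fragile: RLE scaling, a separate fit of the 6 libraries and a fit of 24 libraries each called 0 genes, DESeq2 called 74, and leaving out single libraries gave 0 to 421. The 421, of which 323 were higher, arose without control replicate 3, the matrix-high control with a hepatocyte sum of 14056 CPM against 4647 and 1316 CPM in the other 2, and they made up 3.24% of the genes tested in that fit. They included 5 of 20 contractile genes and 4 of 10 cardiomyocyte markers, all lower, 3 of 15 proteoglycans, and 5 of 42 amino acid genes, 4 of 22 cholesterol genes and 2 of 10 hepatocyte markers, all higher. The part of liver transcripts in that count was not tested.

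Genes next in order in the matrix-high stratum were *C7* (-1.14 ± 0.17), the Z-disc protein *Myoz2* (-1.20 ± 0.19), *Ccdc88c* (-0.98 ± 0.16), the predicted gene *Gm51695* (-0.94 ± 0.16) and the desmosomal protein *Dsp* (-0.65 ± 0.11), none called. *Myoz2* stood at 9.06, 11.6 and 8.39 CPM in VEDS and 26.7, 17.9 and 22.2 CPM in controls. The same stratum held the highest cardiomyocyte sum, 1050 CPM in control replicate 5, where *Myoz2* stood at 22.2 CPM. The part of cardiac transcripts in the *Myoz2* values was not tested.

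By edgeR the matrix-low stratum held 0 called genes, although 394 (3.04%) lay below an unadjusted p of 0.05, and by DESeq2 it held 1. That gene, *Cpz*, encodes carboxypeptidase Z, a secreted enzyme that binds Wnt proteins, and stood at 14.2, 12.0 and 11.1 CPM in VEDS and 4.26, 6.66 and 5.65 CPM in controls (1.16 ± 0.18, edgeR adjusted p = 0.356). Next were *Phgdh*, *Bcat1* (1.33 ± 0.27), *Aldh1l2*, *Sfrp4* (0.69 ± 0.15), *Krit1* (-0.26 ± 0.057), which stabilises endothelial junctions, *Kcnj15* (-0.86 ± 0.19), the anchoring protein *Sphkap* (-0.94 ± 0.21), the histone gene *H2bc11* (2.02 ± 0.45) and the transcriptional corepressor *Nab2* (0.48 ± 0.11). *H2bc11* was below 2.2 CPM in all 6 of these libraries and shares sequence with other histone genes. Serine, branched-chain and one-carbon enzymes thus filled 3 of the 10 smallest p-values in this stratum, while *Timp1* (0.60 ± 0.14) lay outside them.

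**Figure D4:**
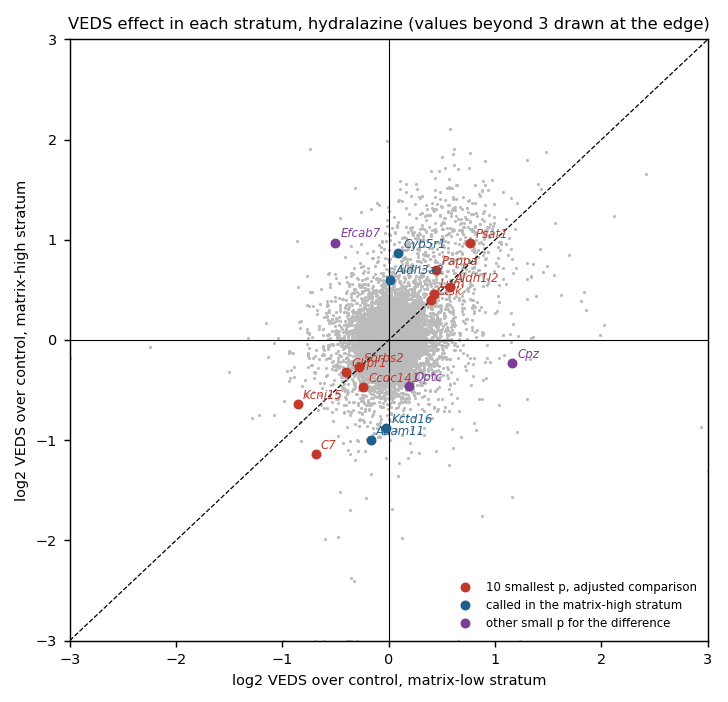
Log2 difference of VEDS minus control in the matrix-low stratum (horizontal) and the matrix-high stratum (vertical) for 12966 genes, both from 1 fit of 12 libraries, with the line of equal values dashed. Genes with the smallest adjusted-comparison p (red) lie near the line, those called in the matrix-high stratum (blue) near 0 on the horizontal axis, and *Cpz*, *Optc* and *Efcab7* (purple) away from the line. The coloured genes were chosen by these p-values, so their places follow in part from the choice.

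The test of the difference between strata called 0 of 12966 genes by edgeR, while 552 (4.26%) lay below an unadjusted p of 0.05, 2.54% being more negative in matrix-high libraries, and the DESeq2 fit called 2 genes, *Kctd16* and *Cpz*. *Cpz* had the smallest p: against its matrix-low excess, VEDS stood at 29.7, 32.5 and 26.9 CPM and controls at 38.3, 35.6 and 30.6 CPM in the matrix-high stratum (difference of effects -1.39 ± 0.23, adjusted p = 0.678). *Optc*, opticin, a small leucine-rich proteoglycan, stood at 35.4, 36.5 and 37.3 CPM in matrix-high VEDS against 50.8, 51.3 and 48.2 CPM, and at 48.1, 52.1 and 47.3 CPM in matrix-low VEDS against 37.9, 46.2 and 45.5 CPM (-0.65 ± 0.12). *Optc* and *Efcab7* (1.48 ± 0.32) belong to the 48 genes (0.37%) whose genotypes did not overlap in either stratum but in opposite directions. *Kctd16* (-0.85 ± 0.16) and *Aldh3a2* (0.59 ± 0.12) were the other 2 of the 5 smallest. Calls present in one stratum and absent in the other are therefore not shown by edgeR to differ between strata.

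A group of low-count genes was set aside by the expression filter in the comparison of all 12 libraries, and without the filter 6 genes passed in the adjusted comparison, 5 higher and 1 lower. Besides *C7*, *Aldh1l2* and *Lum* these were *Trim66*, which encodes a tripartite motif protein that regulates transcription, *Ostn*, which encodes the peptide osteocrin, a ligand of the natriuretic peptide clearance receptor, and *Slc7a11*, the cystine-glutamate exchanger whose promoter window is shown above. They were singled out after their values were seen. *Trim66* and *Ostn* also entered the filtered fit when certain single libraries were left out, and were then called in 7 and 6 of the 12 such fits. Hydralazine controls held 0 to 2 counts of each, so both passed the filter only through the VEDS libraries where they were high. The calls and adjusted p-values of these low-count genes therefore describe them and support nothing. *Trim66* held 18, 28 and 37 expected counts in matrix-high VEDS and 13, 13 and 8 in matrix-low VEDS, against 0 to 2 in the 6 controls (adjusted p = 0.0026).

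*Ostn* held 27, 23 and 34 counts in matrix-high VEDS and 22, 10 and 5 in matrix-low VEDS, against 0 in 5 controls and 2 in the other (adjusted p = 0.0026). *Slc7a11* held 16, 25 and 20 counts in matrix-high VEDS and 6, 5 and 2 in matrix-low VEDS, against 0 to 2 in controls (adjusted p = 0.0434), so its matrix-low ranges met at 2. In libraries outside the hydralazine arm, *Trim66* held 2 to 20 counts in untreated VEDS and 2 to 9 in untreated controls, and 14 to 22 and 19 to 31 in VEDS mice given hydralazine with bicalutamide (HB) or spironolactone (HS). *Ostn* held 0 to 23 in untreated VEDS, 0 to 20 in untreated controls, 15 to 23 in HB and 12 to 25 in HS. *Slc7a11* held 1 to 15 in untreated VEDS, 0 to 21 in untreated controls, 1 to 8 in HB and 3 to 13 in HS. The untreated genotypes thus overlapped for all 3 genes. For *Ostn* this came from 2 matrix-high libraries. Untreated control replicate 5 held 20 counts and the other untreated controls 0 or 1. Untreated VEDS replicate 5 held 0 and the other untreated VEDS 5 to 23. These libraries held 21 and 1 counts of *Slc7a11* and 9 and 2 of *Trim66*, which overlapped also without them. The reason was not tested. The VEDS libraries on combined treatment lay above the hydralazine controls for *Trim66* and *Ostn* but not for *Slc7a11* in HB.

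**Figure D5:**
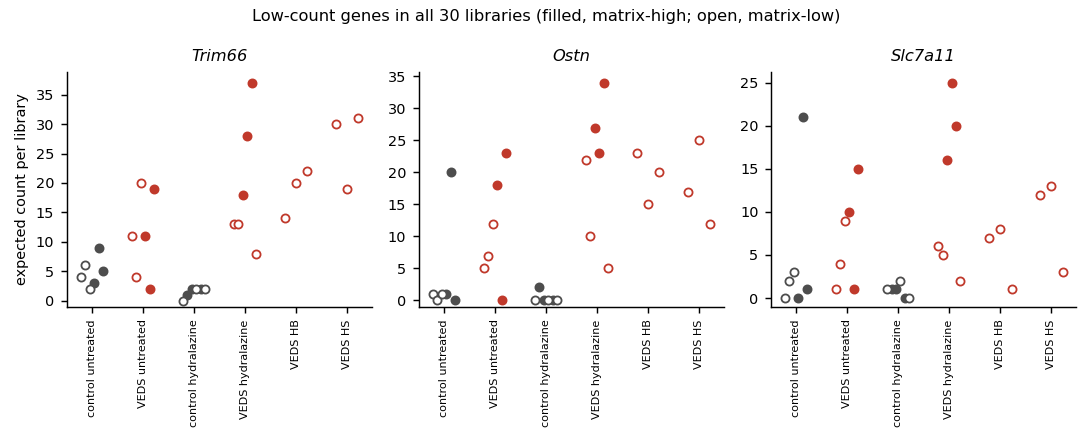
Expected counts (not scaled for depth, linear axes) of *Trim66*, *Ostn* and *Slc7a11* in each of the 30 libraries by group, filled for matrix-high and open for matrix-low. Hydralazine controls hold 0 to 2 counts for each gene and hydralazine VEDS libraries 8 to 37 of *Trim66*, 5 to 34 of *Ostn* and 2 to 25 of *Slc7a11*.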

How the data were processed

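Expected counts and TPM per gene were deposited for each library, estimated by the authors with RSEM, which divides reads shared between similar genes. CASAVA and RSEM and the build mm39 are named in the submitters' processing notes. Expected counts were rounded (97.6% were whole within 1e-06) and 12966 of 26253 symbols passed edgeR's filterByExpr. TMM scaling and edgeR's quasi-likelihood test (edgeR 4.0.16, R 4.3.3) with Benjamini-Hochberg adjustment compared 6 VEDS with 6 control libraries, with a 2-level stratum covariate set at 10000 CPM of *Col3a1*, then within strata and between them in 1 fit with an interaction. limma 3.58.1 was loaded with edgeR, and DESeq2 1.42.0 was an alternative. Other alternatives were scaling, filters, covariates, library sets and omission of single libraries. The text names the 10 genes with the smallest p (mean of at least 1 CPM) for the adjusted comparison and for each stratum, the 5 for the difference, up to 4 members per list by p, the fibrillar collagens and *Nr3c2*. A few of the genes chosen this way are left out of the text. Amino acid genes, *Mmp2*, *Timp1* in the matrix-low stratum and low-count genes were named after their values were seen. The members, lists and tests were chosen with earlier results of these data known. Each library is a separate aorta. The labels give 1 batch for all libraries, but the paper describes extraction in randomized batches of 10 aortas with 1 from each group. No label gives the collection day or extraction batch of a single library, so neither was used here. On simulated data with the adjusted design, 88.9% of genes changed 2-fold and 58.2% of those changed 1.5-fold were recovered. For the difference between strata these shares were 44% and 3%, so most such differences of these sizes would be missed. The simulated counts were drawn gene by gene and held no contamination shared across a library. The deposited TPM were used only to rank collagens.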

Additional observations from a re-analysis of the deposited data

Results flagged for a closer look

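In each genotype of 6 libraries, a highest or lowest library was looked for whose gap to its nearest neighbour exceeded 0.625 of the whole range, and 15 of 232 groups of values met this. The cut is set to flag about 1 in 20 groups of values drawn from 1 normal distribution. Each group here mixes both strata and the groups share libraries, so that rate need not hold. Control replicate 3 stood apart in *Sc5d* (64.9 CPM, others 21.1 to 35.4), *Shmt2* (29.0, others 19.5 to 22.4), *Agtr1a* (8.06, others 2.84 to 4.50), the apolipoprotein gene *Apoc3* (70.2, others 5.28 to 22.1), the summed hepatocyte markers (14056, others 819 to 4647) and the summed adipocyte markers (2297, others 1617 to 1856). Control replicate 5 stood apart in summed cardiomyocyte markers (1050, others 158 to 268) and skeletal muscle markers (23.1, others 3.13 to 8.20). VEDS replicate 1 was highest in *F13a1* (161, others 112 to 123), *C1qa* (75.7, others 52.8 to 61.2) and summed macrophage markers (873, others 664 to 740.0). Control replicate 1 was highest in summed lymphocyte and neutrophil markers (43.1, others 11.3 to 22.1) and Schwann cell markers (35.4, others 21.7 to 26.2). *Kcnj15* was highest in control replicate 4 (39.7, others 23.5 to 26.4) and *Efcab7* in VEDS replicate 5 (3.79, others 2.43 to 2.83).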

How the results depend on the processing

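The adjusted comparison called 0 genes by edgeR, and 6 with no expression filter, 5 with *Col3a1* as a continuous covariate and 18 by DESeq2. Leaving out single libraries gave 0 to 7, namely 4, 1, 2, 7, 3 and 2 without control replicates 1 to 6, 1 without VEDS replicate 3, 2 without VEDS replicate 6 and 0 otherwise. The matrix-high comparison (4 called) gave 0 with RLE scaling, 0 in a fit of 24 libraries, 0 in a separate fit of the stratum, 8 with no filter and 74 by DESeq2. Leaving out single libraries gave 0 to 421 there, namely 1, 0, 421, 5, 6 and 4 without control replicates 1 to 6, 2 without VEDS replicate 6 and 0 without any other VEDS library, and leaving out control replicate 5 with VEDS replicate 4, an alternative chosen after seeing the data, gave 2. The matrix-low comparison (0) gave 1 by DESeq2 and 1 in a fit of 24 libraries, and 0 to 0 without single libraries. The difference between strata (0) gave 2 by DESeq2 and 0 to 2 without single libraries, 2 without control replicate 3. The cause was not tested. *Nr3c2*, near 0, changed sign with the continuous covariate (0.020), with 24 libraries (0.0037) and without VEDS replicate 1 (0.025), VEDS replicate 6 (0.010), control replicate 1 (0.064) or control replicate 5 (0.0051), and omitting single libraries moved it between -0.031 and 0.064. For single named genes, 2537 values kept direction and side of the threshold, 53 passed it newly and 52 no longer passed it. No paired analysis was possible because the labels give these libraries no replicate numbers and no extraction batch. The replicate numbers in this text follow the order of the samples within each group. With 3 libraries per genotype and stratum, 72% of 2-fold and 31.3% of 1.5-fold changes were recovered in simulated matrix-high data.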

Other observations

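The lists not described above showed few members at an unadjusted p under 0.05 in the adjusted comparison. In the elastic fibre list 6 of 20 genes lay above 0 (median -0.06), as did 6 of 16 heat shock chaperones (median -0.10), 14 of 20 immediate early genes (median 0.12), with 1 at that level, *Myc*, and 11 of 23 glycolysis genes. Brown adipocyte markers were higher in 1 of 8 (median -0.23), with the mitochondrial coactivator *Ppargc1a* at -0.50 ± 0.18. Erythroid markers were higher in 0 of 5 and Schwann cell markers in 3 of 4. The study named 5 stress genes as lower in VEDS, chosen on untreated libraries of this series. Of these, 3 were higher (median 0.23), none at an unadjusted p under 0.05. The innate immune receptor *Tlr4* (-0.19 ± 0.083) was the 1 that was lower at that level.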
